A study of Mus musculus with 78 samples.

Results

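DPM1, SMC3, SDPR and CTNND1 were 4 of the 2755 genes measured by a targeted panel in mouse liver. They were selected on their own measured difference between mice given dichloroacetic acid (DCA) and mice given water over 9 comparisons. DPM1 was below its controls in 8 of these, and SMC3 was above them in 9, SDPR in 8 and CTNND1 in 7. Calls were fewer, with DPM1 called in 7, SMC3 in 5, SDPR in 4 and CTNND1 in 4 (3 higher and 1 lower). All 4 were among the 2205 genes that remained after the authors' filter on low values. For the 4 genes, the 9 comparisons that chose them, and every other comparison that uses the same control libraries, are given only as a description. Tests of the 4 genes are given among treated groups. Adjusted p-values of pathway genes come from the same 9 comparisons, and these genes were named by their calls there. SDPR is the older symbol of Cavin2.

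The samples were liver of male B6C3F1 mice, a hybrid strain, cut from archived formalin-fixed and paraffin-embedded (FFPE) blocks, with 1 library per mouse. TempO-Seq was used, an assay in which a pair of detector probes is ligated on its target RNA, amplified and counted. Treated mice drank 3.5 g/L DCA, a by-product of water disinfection that inhibits pyruvate dehydrogenase kinase, and controls drank deionized water alone. The authors kept 68 of 78 libraries, and the values given are from these unless the left-out libraries are named. All groups share strain and sex, and the labels give an age of 4 weeks for each mouse beside a sampling time in weeks, which is the number in each group name. The S1 mice had 10 weeks of DCA and then water, and were sampled at 10 weeks, when DCA ended (S1-10, n = 6), at 32 weeks (S1-32, n = 6), at 57 weeks (S1-57, n = 6) and at 78 weeks (S1-78, n = 6). In S2 the 32 weeks of DCA ended at the sampling of S2-32 (n = 6), and S2-78 (n = 4) then had water for 46 weeks. In S3 the 57 weeks of DCA ended at the sampling of S3-57 (n = 5), and S3-78 (n = 4) then had water for 21 weeks. Direct-78 (n = 3) had DCA for all 78 weeks. Water controls were sampled at 10 weeks (Control-10, n = 4), 32 weeks (Control-32, n = 6), 57 weeks (Control-57, n = 6) and 78 weeks (Control-78, n = 6). Whether a section held tumour tissue was not given in the sources used here.

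Total counts per kept library ran from 541245 to 4285848, with a median of 2162678. Direct-78 was the shallowest group, with 541245, 671116 and 699825 counts, while its Control-78 libraries held 2098777 to 4285848. The totals of S1-32 lay above those of Control-32 without overlap, and the totals of S3-57, S3-78 and Direct-78 lay below those of their controls without overlap. Levels are given as CPM (counts of a gene divided by the scaled total of its library, in parts per 10⁶) after scaling by trimmed mean of M values (TMM), and a difference is given on the log2 scale with its standard error (SE). The liver label was checked against hepatocyte markers, 13 of 19 of which were on the panel. Their summed level ran from 41801 to 154153 CPM, with a median of 89798, FABP1 was the most abundant, and no marker was at 0 in every library.

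The 4 genes act in separate parts of the cell. DPM1 encodes the catalytic subunit of dolichol-phosphate mannose synthase at the endoplasmic reticulum, which supplies mannose for N-glycans, glycosylphosphatidylinositol (GPI) anchors and O-mannosylation. SMC3 encodes a core subunit of cohesin, the ring complex that holds sister chromatids together and shapes chromatin loops. SDPR encodes a coat protein of caveolae, the small invaginations of the plasma membrane that are plentiful in endothelium, and CTNND1 encodes p120 catenin, which binds the juxtamembrane tail of cadherins and keeps them at the cell surface.

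Their promoters are shown because DPM1 moved against SMC3 and SDPR across the groups, and a reader may want to compare what lies upstream of each. All 4 genes matched a RefSeq promoter of 300 bases in the mouse build GRCm38.p6, and all are annotated as protein coding. Dpm1 lies on the minus strand of chromosome 2 at 168209048 to 168230379, and its promoter is chr2:168230330-168230629. Smc3 lies on the plus strand of chromosome 19 at 53600396 to 53645831, and its promoter is chr19:53600146-53600445. Cavin2 lies on the plus strand of chromosome 1 at 51289126 to 51302960, and its promoter is chr1:51288876-51289175. Ctnnd1 lies on the minus strand of chromosome 2 at 84587096 to 84658977, and its upstream promoter is chr2:84658928-84659227. Each window starts 250 bases before the annotated start of the gene and reaches 50 bases past it. Capitals mark the motifs described after the sequences, and each sequence is written along the strand of its gene.
Dpm1: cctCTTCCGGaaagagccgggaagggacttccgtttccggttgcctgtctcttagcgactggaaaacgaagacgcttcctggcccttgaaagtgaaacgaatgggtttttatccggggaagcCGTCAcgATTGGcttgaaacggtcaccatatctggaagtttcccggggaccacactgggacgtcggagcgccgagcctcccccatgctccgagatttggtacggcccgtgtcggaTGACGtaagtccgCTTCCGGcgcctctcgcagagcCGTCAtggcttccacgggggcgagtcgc
Smc3: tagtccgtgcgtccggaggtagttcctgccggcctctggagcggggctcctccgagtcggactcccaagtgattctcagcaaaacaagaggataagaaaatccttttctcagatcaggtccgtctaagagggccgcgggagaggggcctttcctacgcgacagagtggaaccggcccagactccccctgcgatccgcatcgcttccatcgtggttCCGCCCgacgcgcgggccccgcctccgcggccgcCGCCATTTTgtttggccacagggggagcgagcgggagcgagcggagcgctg
Cavin2: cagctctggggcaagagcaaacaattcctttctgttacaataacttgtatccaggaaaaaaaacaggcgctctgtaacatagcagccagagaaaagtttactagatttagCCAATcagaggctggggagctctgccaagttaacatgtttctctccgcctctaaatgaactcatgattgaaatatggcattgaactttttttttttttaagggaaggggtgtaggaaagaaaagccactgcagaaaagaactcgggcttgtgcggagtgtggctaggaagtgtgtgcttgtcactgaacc
Ctnnd1: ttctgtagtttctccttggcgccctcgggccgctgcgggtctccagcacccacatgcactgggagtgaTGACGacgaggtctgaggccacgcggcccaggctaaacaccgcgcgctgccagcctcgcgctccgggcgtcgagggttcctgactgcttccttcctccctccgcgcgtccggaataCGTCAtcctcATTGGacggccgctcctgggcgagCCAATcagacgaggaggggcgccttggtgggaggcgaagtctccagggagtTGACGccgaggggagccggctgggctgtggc

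Motif letters were searched on both strands, and each share given is that among 32851 RefSeq promoters of the same length. Dpm1 held 2 ETS motifs (CCGGAAG, in 8.86% of promoters). It also held 3 partial cyclic AMP response elements (TGACG, in 20.8%) and 1 inverted box of the letters CCAAT (in 37.4%). Smc3 held 1 SP1 box (GGGCGG, in 35.7%) and 1 YY1 motif (AANATGGCG, in 2.38%). Cavin2 held 1 box of the letters CCAAT and no other motif searched for. The upstream Ctnnd1 promoter held 3 partial cyclic AMP response elements and 2 boxes of the letters CCAAT. Another annotated Ctnnd1 promoter, chr2:84650691-84650990, held 2 such boxes, 1 TATA box (TATAAA, in 13.6%) and 1 nuclear receptor repeat unit (AGGTCA, in 16.3%). No E-box (CACGTG, in 7.15%) was found in these windows, and no motifs overlapped. GC content was 60.0% for Dpm1, 65.0% for Smc3, 43.3% for Cavin2, 67.7% for the upstream Ctnnd1 promoter and 42.7% for the other. These matches describe letters only.

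DPM1, the catalytic subunit of mannose donor synthesis, was high in the older water controls and low in nearly all DCA groups. The 4 libraries of Control-10 were also low, at 322, 265, 281 and 278 CPM. The lowest, median and highest levels were 378, 1342 and 2712 CPM in Control-32, 350.4, 1073 and 2054 CPM in Control-57 and 448, 995 and 3006 CPM in Control-78. The controls from 32 weeks on thus spread widely, and each of these groups held at least 1 library near the level of the treated mice.

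After 10 weeks of DCA, the S1-10 libraries had 337, 366 and 469 CPM as lowest, median and highest, all above the Control-10 libraries. The later S1 groups kept to a similar span, with 335, 380.3 and 628 CPM in S1-32, 258, 363 and 464 CPM in S1-57 and 246, 412 and 475 CPM in S1-78. Each of these 3 groups lay low against its controls but overlapped them. S2-32 spanned 241, 302 and 483 CPM, and the S2-78 libraries had 314, 368, 311 and 727 CPM. Mouse 47, the highest of S2-78, was also high in exocrine pancreas genes.

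The lowest levels of the gene were found in S3. The libraries of S3-57 had 133, 292, 96.7, 156 and 313 CPM, and all 5 lay below every Control-57 library. S3-78 had 111, 229, 512 and 217 CPM, of which 1 library reached into the range of Control-78. Direct-78 had 256, 348 and 401 CPM, all below Control-78. In the order of group medians, S3-57 was lowest and Control-32 highest, the 3 older control groups were the top 3, and every group overlapped its neighbour in that order.

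The log2 difference of DPM1 from age-matched controls was 0.41 ± 0.41 (SE) in S1-10 and then -1.79 ± 0.37, -1.65 ± 0.37 and -1.63 ± 0.37 in S1-32, S1-57 and S1-78. It was -2.07 ± 0.38 in S2-32 and -1.49 ± 0.43 in S2-78. For S3 it was -2.52 ± 0.41 at 57 weeks and -2.17 ± 0.44 at 78 weeks. Direct-78 gave -1.85 ± 0.49. In Direct-78 the median of all 2205 genes was itself at -0.33 against Control-78, and relative to that median DPM1 stood at -1.52. DPM1 was lower than its controls in 8 of 9 comparisons, with S1-10 as the exception. Without mouse 86 of Control-78, the highest library, the values nearest 0 were reached, -1.12 in S1-78, -0.94 in S2-78 and -1.29 in Direct-78.

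Erythroid markers were summed beside DPM1, 4 of 10 of which were on the panel, with ALAS2 the most abundant and none at 0 in every library. Their summed level was 60.7 to 240.3 CPM (median 219) in Control-10, 206 to 599.8 CPM (median 494) in Control-32, 307 to 815 CPM (median 483) in Control-57 and 355 to 1028 CPM (median 484) in Control-78. It was 52.8 to 369.7 CPM (median 195) in S3-57, 13.8 to 230.4 CPM (median 70.4) in S3-78 and 83.6 to 131 CPM (median 99.7) in Direct-78. S3-78 and Direct-78 lay below Control-78 without overlap, as Direct-78 did for DPM1. S1-10, with 298 to 444 CPM (median 368), lay above Control-10 without overlap, as it did for DPM1, but this sum is mostly ALAS2, and the median log2 difference of the 4 markers was -0.59 in S1-10, the other direction. That median was also below 0 in the 8 groups where DPM1 was lower, at -0.90 in S1-32, -0.62 in S1-57, -0.22 in S1-78, -0.79 in S2-32, -0.73 in S2-78, -0.46 in S3-57, -1.27 in S3-78 and -3.97 in Direct-78. ALAS2 had a mean of 273 CPM beside a median sum of 302 CPM over 68 libraries, so the other markers were low and weigh on these medians. Direct-78, at -3.97, was also the shallowest group. No other marker list was set beside DPM1 in the comparisons with controls, so nothing is read from the shared sign. The part of these markers in the DPM1 values was not tested.

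SMC3, the cohesin subunit, showed the opposite order, with low levels in the older controls and higher ones in treated mice. Control-10 had 44.2, 55.5, 46.5 and 55.9 CPM. The lowest, median and highest levels were 3.70, 16.3 and 38.4 CPM in Control-32, 10.3, 16.6 and 27.6 CPM in Control-57 and 9.95, 16.9 and 31.3 CPM in Control-78. The 3 older control groups therefore had nearly equal medians, and their libraries held 4 to 102 counts of the gene, so single values carry a large counting error.

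S1-10 spanned 47.2, 65.1 and 73.1 CPM (lowest, median, highest) and overlapped Control-10. The later S1 groups spanned 26.5, 52.1 and 57.3 CPM in S1-32, 27.998, 58.5 and 72.3 CPM in S1-57 and 26.8, 39.2 and 66.7 CPM in S1-78. Every S1-57 library lay above every Control-57 library, while 1 library of S1-32 and 1 of S1-78 reached into the control range. S2-32 spanned 18.3, 51.6 and 79.3 CPM, overlapping Control-32, and S2-78 had 39.3, 62.3, 43.6 and 36.1 CPM, all above Control-78.

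S3-57 had 46.7, 43.0, 53.5, 52.9 and 21.4 CPM, and its last library lay among the controls. S3-78 had 26.5, 29.1, 14.8 and 60.1 CPM, with only the last of these above all Control-78 libraries. Direct-78 had 63.2, 33.7 and 36.4 CPM, all above Control-78, from 25 to 64 counts a library. Group medians ordered the 3 older control groups lowest and S1-10 highest, Control-10 lay between S3-57 and S2-32, and every group overlapped its neighbour.

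Against age-matched controls the log2 difference of SMC3 was 0.28 ± 0.38 (SE) in S1-10, 1.38 ± 0.35 in S1-32, 1.62 ± 0.35 in S1-57 and 1.06 ± 0.34 in S1-78. S2-32 gave 1.42 ± 0.35 and S2-78 1.17 ± 0.38. S3-57 gave 1.28 ± 0.36 and S3-78 0.69 ± 0.38, which was 0.23 without mouse 60 and 0.17 with all 78 libraries. Direct-78 gave 1.15 ± 0.41, or 1.48 relative to the median of all genes. The value was above 0 in 9 of 9 comparisons.

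SMC3 is used by all cells and cohesin is loaded anew in dividing ones, so proliferation genes were summed beside it, 30 of 31 of which were on the panel, with HJURP the most abundant and none at 0 in every library. Their summed level was 334 to 849.5 CPM (median 349) in S1-57, where SMC3 lay above all its controls, and 318 to 1050.4 CPM (median 401) in Control-57. It was 364 to 868 CPM (median 724) in Direct-78 and 221 to 704 CPM (median 334) in Control-78. The sums of both pairs overlapped, but the median log2 difference of the 26 tested proliferation genes was 1.498 in Direct-78, beside -0.33 for all genes. It was 1.33 in S2-78, 0.96 in S1-78, 0.65 in S3-78, 0.57 in S2-32 and 0.07 in S3-57, and -0.02 in S1-57, -0.80 in S1-32 and -1.69 in S1-10, while SMC3 was above its controls in all 9. The part of these genes in the SMC3 values was not tested.

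SDPR, the caveolar coat protein, was highest in Control-10, at 85.4, 111, 208 and 172 CPM. The older controls were lower, with a lowest, median and highest level of 34.2, 50.5 and 92.4 CPM in Control-32, 28.4, 45.5 and 84.1 CPM in Control-57 and 21.7, 40.1 and 50.3 CPM in Control-78. The highest library of Control-32 lay inside the range of Control-10, and all other older controls lay below it.

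S1-10 spanned 55.2, 73.03 and 101 CPM (lowest, median, highest), partly below Control-10. S1-32 spanned 71.5, 94.3 and 113 CPM, S1-57 49.7, 100.5 and 162 CPM and S1-78 80.4, 97.2 and 166 CPM. All S1-78 libraries lay above all of Control-78, and the other 2 groups overlapped their controls. S2-32 spanned 61.6, 97.0 and 123 CPM, and S2-78 had 92.1, 86.5, 115 and 45.6 CPM. Both overlapped their controls, S2-78 through its last library, which was mouse 47.

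S3-57 had 76.2, 57.9, 173, 49.2 and 113 CPM, which overlapped Control-57. S3-78 had 200.4, 142, 106 and 98.9 CPM, all above Control-78. Direct-78 had 112, 101 and 28.3 CPM, the last of which, with 21 counts, lay inside the control range. By group median, Control-78, Control-57 and Control-32 were lowest, Control-10 was highest, S1-10 was the lowest treated group, and every group overlapped its neighbour.

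The log2 difference of SDPR from age-matched controls was -0.91 ± 0.34 (SE) in S1-10, 0.79 ± 0.31 in S1-32, 1.07 ± 0.31 in S1-57 and 1.53 ± 0.31 in S1-78. It was 0.85 ± 0.31 in S2-32 and 1.15 ± 0.34 in S2-78. S3-57 gave 0.91 ± 0.32 and S3-78 1.84 ± 0.34. In Direct-78 it was 1.08 ± 0.37, and 1.41 relative to the median of all genes. SDPR was thus above its controls in 8 of 9 comparisons and below them in S1-10.

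Endothelium is rich in caveolae, so endothelial markers were summed beside SDPR. The panel held 10 of 25 of them, CLEC1B was the most abundant, and none was at 0 in every library. Their summed level was 677 to 794 CPM (median 726) in Control-10 and 572 to 800.5 CPM (median 733) in S1-10, which overlapped. It was 227 to 755 CPM (median 582) in S1-78, 405 to 799.7 CPM (median 547) in S3-78 and 363 to 519.9 CPM (median 419) in Control-78. In Direct-78 it was 288 to 423 CPM (median 418). The sums of these groups overlapped those of Control-78, and the abundant CLEC1B weighs on them. In S1-32 it was 735 to 890.5 CPM (median 853), beside 319.6 to 779 CPM (median 516) in Control-32. The median log2 difference of the 10 markers was above 0 in 5 of the 8 groups where SDPR was higher, at 0.28 in S1-32, 0.24 in S1-57, 0.56 in S1-78, 0.04 in S2-32 and 0.43 in S2-78. It was below 0 in the other 3, at -0.46 in S3-57, -0.77 in S3-78 and -0.78 in Direct-78, and it was -0.10 in S1-10.

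Stellate cell and fibroblast markers, 10 of 15 of which were on the panel, with COL1A1 the most abundant and none at 0 in every library, were summed as well. The median log2 difference of the 9 tested markers was -1.13 in S1-10, where SDPR was lower, and 1.09 in S1-78, 1.00 in S2-32, 0.71 in S2-78, 0.33 in S3-78 and 0.21 in S1-32, where it was higher. It was 0.01 in Direct-78, -0.04 in S1-57 and -0.83 in S3-57, where SDPR was higher too. Their sums in S2-32, 448 to 1161 CPM (median 663), lay above those of Control-32, 145 to 366 CPM (median 268), without overlap. The part of both lists in the SDPR values was not tested. In bulk liver, fewer cells of a type and less RNA per cell cannot be told apart.

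CTNND1, the cadherin-binding catenin, was level in the older controls and uneven in the treated groups. Control-10 had 6777, 1669.5, 2805 and 1776 CPM. The lowest, median and highest levels were 1165, 1511 and 2590.0 CPM in Control-32, 1056, 1293 and 1655 CPM in Control-57 and 902, 1119.5 and 1485 CPM in Control-78. The first library of Control-10 stood far above the other 3, and the highest of Control-32, mouse 73, stood apart from its group.

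S1-10 spanned 831, 1189 and 1416 CPM (lowest, median, highest), all below Control-10. S1-32 spanned 893, 1227 and 1626 CPM and overlapped Control-32. S1-57 spanned 1009, 3077 and 5612 CPM, and 5 of its 6 libraries lay above Control-57. In S1-78 the span was 882, 1157 and 6131 CPM, and only mice 31 and 32, at 4666 and 6131 CPM, lay above the controls. The other 4 libraries of S1-78 were at control level or below.

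S2-32 spanned 1253, 1755 and 3105 CPM, mostly inside Control-32, while S2-78 had 2032, 1506, 3959 and 4104 CPM, all above Control-78. S3-57 had 3509, 2869.7, 9861, 2144 and 4528 CPM, all above Control-57. The highest group was S3-78, with 7097, 4456, 6682 and 5853 CPM. Direct-78 had 4382, 2869 and 3735 CPM, all above Control-78 and below S3-78. By group median, Control-78, S1-78, S1-10 and S1-32 were lowest and S3-78 was highest. Every group overlapped its neighbour in this order except Direct-78 and S3-78.

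The log2 difference of CTNND1 from age-matched controls was -1.52 ± 0.42 (SE) in S1-10, -0.35 ± 0.38 in S1-32, 1.27 ± 0.38 in S1-57 and 1.15 ± 0.38 in S1-78. S2-32 gave 0.26 ± 0.38 and S2-78 1.36 ± 0.41. In S3-57 it was 1.78 ± 0.40 and in S3-78 2.41 ± 0.42. Direct-78 gave 1.70 ± 0.44, or 2.03 relative to the median of all genes. CTNND1 was below its controls in S1-10 and S1-32 and above them in the other 7 comparisons, but the S1-32 value was 0.35 with depth as a covariate, so its direction turned. Without mouse 68 of Control-10, its highest library, the S1-10 value was -0.88. When depth entered the fit as a covariate (log2 of total counts), the Direct-78 difference of CTNND1 was 0.03 and that of S3-78 was 1.54. Without mouse 32 the S1-78 difference was 0.66. Over other settings the difference was as low as 1.06 in S3-57, 0.66 in S2-78 and 0.72 in S1-78. Totals of S1-32, S3-57, Direct-78 and S3-78 do not overlap those of their controls, so depth and treatment cannot be told apart in the values of these groups.

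The groups with the highest CTNND1 medians, S3-78 and Direct-78, were also low in hepatocyte markers. Their summed level was 48260.1 to 74856 CPM (median 55828) in S3-78 and 49275 to 89358 CPM (median 52923) in Direct-78, beside 75895 to 115220.0 CPM (median 93550.1) in Control-78. All S3-78 libraries lay below all Control-78 libraries in this sum. In S3-57, where CTNND1 was also high, it was 41801 to 92350 CPM (median 74447), overlapping Control-57 at 51911 to 124185 CPM (median 96924). The median log2 difference of these markers was -1.06 in S3-78, -0.99 in Direct-78 and -0.24 in S3-57. It was -0.16 in S1-57, -0.19 in S1-78, -0.01 in S2-78 and 0.52 in S2-32, where CTNND1 was higher too. Where CTNND1 was lower, it was 0.48 in S1-10 and 0.47 in S1-32. Cholangiocyte markers, 5 of 11 of which were on the panel with SPP1 the most abundant and none at 0 in every library, summed to 38.02 to 265 CPM (median 74.8) in S3-78 and 22.3 to 423 CPM (median 62.4) in Control-78, which overlapped. In Direct-78 they summed to 30.996 to 426 CPM (median 188), with a median log2 difference of 2.42 beside -0.33 for all genes. The median of these markers was 1.78 in S1-78, 0.89 in S2-78, 0.78 in S3-57 and 0.40 in S3-78, where CTNND1 was higher. It was -0.08 in S1-57 and -1.39 in S2-32, where CTNND1 was higher too. In the groups where CTNND1 was lower, it was 0.71 in S1-10 and -0.68 in S1-32. The values of S1-78 and S1-57 were those of CLDN7, which is also among the junction genes. Its mean was 8.31 CPM in S1-78 and 4.83 CPM in S1-57, beside 2.49 and 5.35 CPM in their controls. SPP1 had a mean of 63.9 CPM beside a median sum of 81.7 CPM over 68 libraries, so the other markers were low. The part of either list in the CTNND1 values was not tested.

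**Figure D1:**
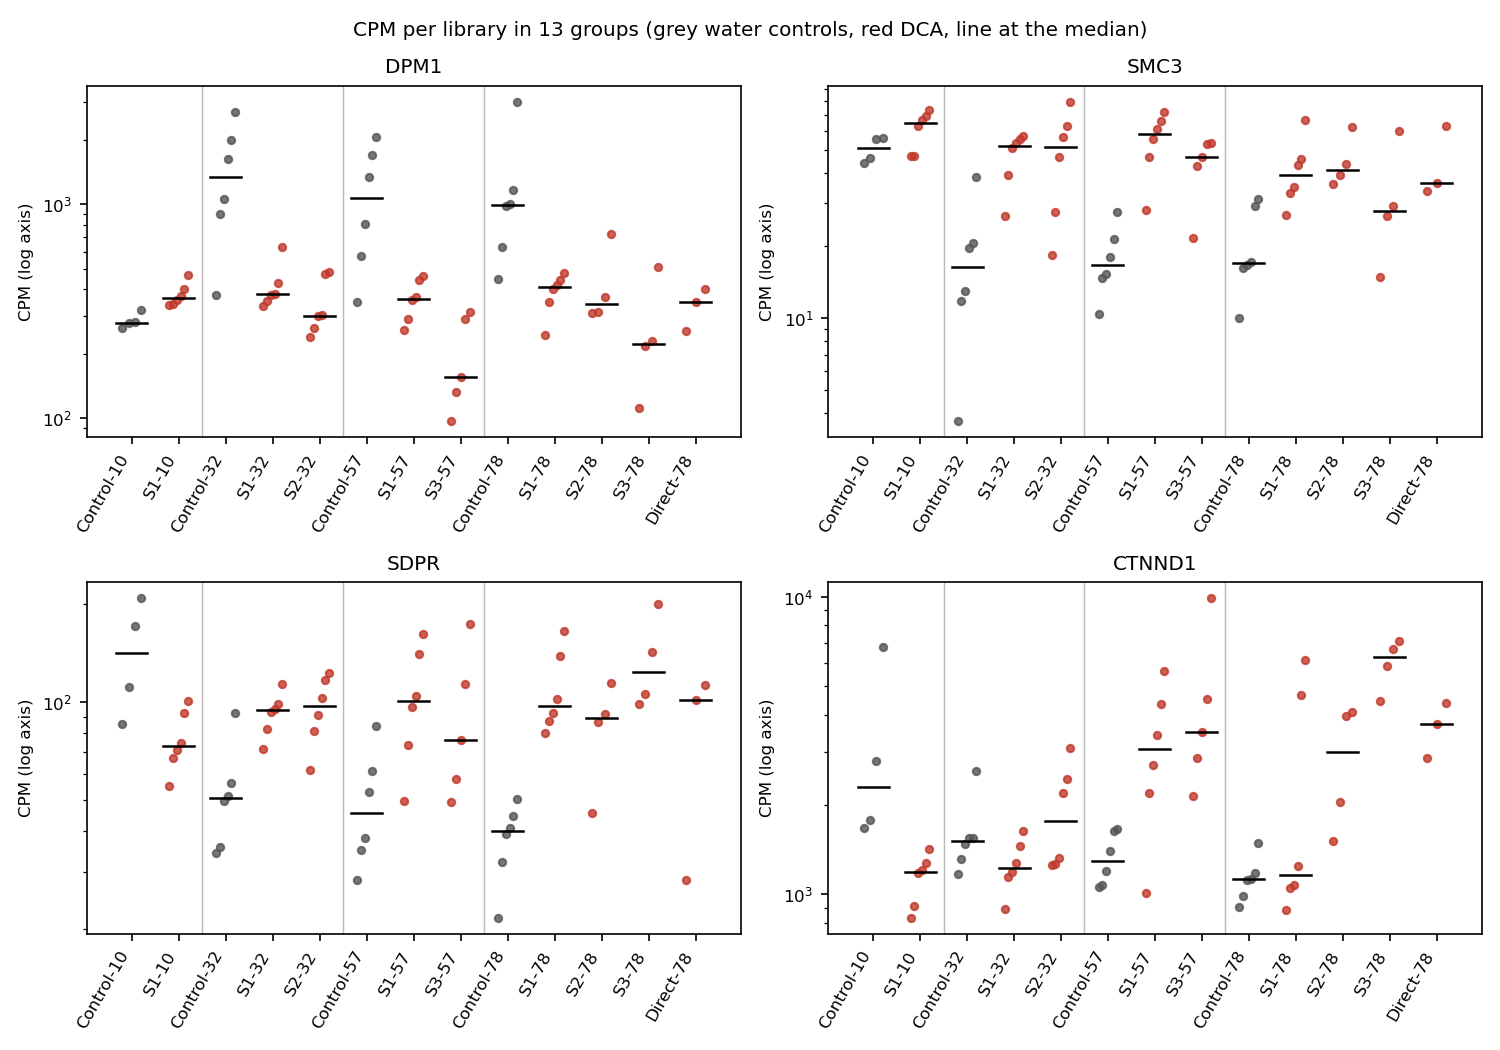
Level of DPM1, SMC3, SDPR and CTNND1 in CPM on a log axis in each of 68 libraries, by group, with the group median marked. The older controls stand high for DPM1 and low for SMC3 and SDPR, the controls at 10 weeks stand with the treated groups for DPM1 and SMC3, and CTNND1 is highest in S3-78.

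A gene was called in a comparison where edgeR gave a fold beyond 1.5 together with an adjusted p of at most 0.05. Since these 9 comparisons chose the 4 genes, nothing is read from the counts of calls, which are given beside the share of all 2205 genes called. In S1-10 it was 1 of the 4 genes (5.49% of all genes), in S1-32 it was 3 (29.1%), in S1-57 it was 2 (1.59%) and in S1-78 it was 2 (1.81%). In S2-32 there were 2 (10.7%) and in S2-78 there were 0 (1.63%). S3-57 had 3 (6.39%), S3-78 had 3 (13.3%) and Direct-78 had 4 (24.4%). By gene, DPM1 was called in 7 of 9 comparisons, SMC3 in 5, SDPR in 4 and CTNND1 in 4, and these counts depended on the method. Of the CTNND1 calls 3 were higher and 1, in S1-10, was lower. Over other settings they ran from 4 to 8 for DPM1, 1 to 7 for SMC3, 0 to 7 for SDPR and 2 to 7 for CTNND1. DESeq2 gave 7 each for SMC3, SDPR and CTNND1, and all 78 libraries gave 1 for SMC3 and 0 for SDPR. Of all genes, 56 were called in at least 4 comparisons, 14 in at least 5, 5 in at least 6, and 1, DPM1, in 7. Comparisons at the same week share their control libraries.

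**Figure D2:**
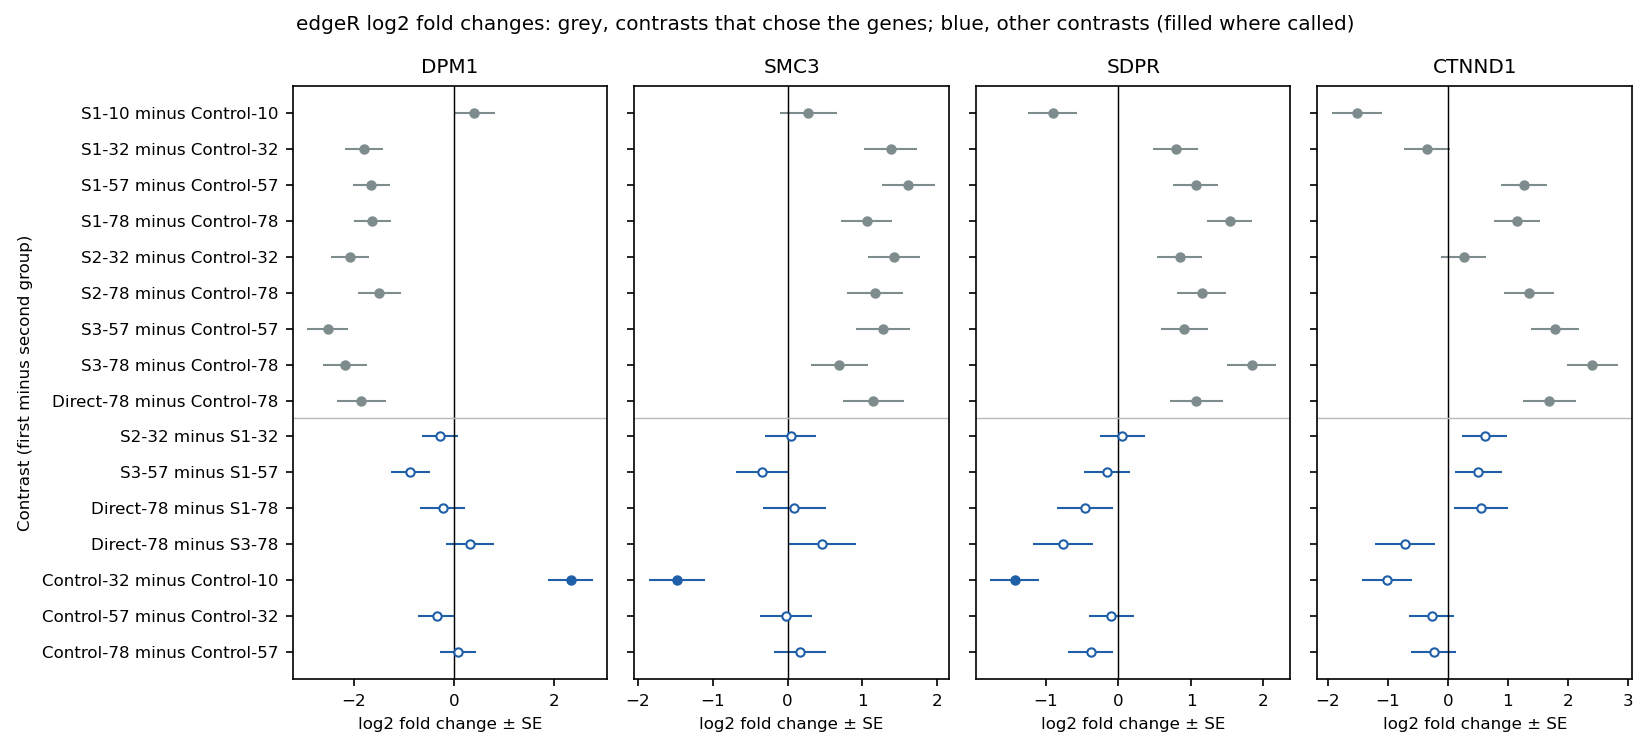
Log2 difference of each gene from age-matched controls, in the tested comparisons of treated groups and between control ages, with bars of 1 SE. Grey marks the comparisons that chose the genes, and blue the others, filled where called. The blue points between control ages are a description with no test, because the same control libraries entered the choice. Among the grey points, DPM1 lies below 0 and SMC3 above 0 in the 8 treated groups sampled from 32 weeks on.

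Whether continued DCA differed from stopped DCA at the same week was tested between treated groups. The control libraries took part in the scaling and in the estimate of variance, and when each fit held just the pair of groups compared, none of the 16 tests passed either. The treated libraries are the same as those that entered the choice of the genes, which favours likeness between treated groups, so nothing is read from a test that did not pass. None of the 16 tests of the 4 genes passed in edgeR. In S2-32 against S1-32, where 3.54% of all genes were called and 0 of the 4, the differences were -0.28 ± 0.36 (SE) for DPM1, 0.04 ± 0.34 for SMC3, 0.06 ± 0.31 for SDPR and 0.61 ± 0.38 for CTNND1. The smallest adjusted p of these was 0.414, for CTNND1, with 3 of 6 libraries of S2-32 above all of S1-32.

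In S3-57 against S1-57 edgeR called 0 of the 4 genes and 0% of all genes, while 111 genes had an unadjusted p under 0.05, DESeq2 called 7 and limma 0. DPM1 had the largest difference there, -0.87 ± 0.39 (adjusted p = 0.835), with an unadjusted p of 0.0280, and 5 of 5 libraries of S3-57 lay below the S1-57 mean. SMC3 had -0.34 ± 0.36, SDPR -0.16 ± 0.32 and CTNND1 0.51 ± 0.39.

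At 78 weeks, continuous DCA was compared with early and late withdrawal. Direct-78 against S1-78 called 24.5% of all genes and 0 of the 4, with the median of all genes at -0.36. Differences were -0.22 ± 0.45 for DPM1, 0.09 ± 0.42 for SMC3, -0.46 ± 0.38 for SDPR and 0.55 ± 0.45 for CTNND1, and relative to that median they were 0.14, 0.45, -0.10 and 0.91. The sign for DPM1, SMC3 and CTNND1 changed with other scalings or covariates. Direct-78 against S3-78 called 5.03% of all genes and 0 of the 4, with the median of all genes at -0.27. DPM1 had 0.32 ± 0.48, SMC3 0.46 ± 0.45, SDPR -0.76 ± 0.41 and CTNND1 -0.72 ± 0.51. Without 1 library they ran from 0.12 to 1.00 for DPM1, 0.20 to 0.92 for SMC3, -1.02 to -0.31 for SDPR and -0.79 to -0.42 for CTNND1. Relative to the median of all genes the differences were 0.59, 0.72, -0.49 and -0.45 in the same order of genes. All 3 Direct-78 libraries lay below all S3-78 libraries for CTNND1, with an adjusted p of 0.438. With 3 Direct-78 libraries, each of these intervals is wide.

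The levels of the 4 genes in water controls of different ages are given next. The same control libraries entered the choice of the genes, so these differences are a description with no test, and nothing is read from the counts of calls. Control-32 minus Control-10 was 2.33 ± 0.45 (SE) for DPM1, with 6 of 6 libraries of Control-32 above all of Control-10. It was -1.48 ± 0.38 for SMC3, with 6 of 6 libraries below all of Control-10, and -1.43 ± 0.34 for SDPR, with 5 of 6 below. For CTNND1 it was -1.02 ± 0.41, also with 5 of 6 below, and -0.26 without mouse 68 of Control-10. In this comparison 3 of the 4 genes were called (1.59% of all genes), and without 1 library the call was lost in 8 of 10 fits for SMC3 and 5 of 10 for SDPR. Over 11 other settings DPM1 was called in 10, SMC3 in 8 and SDPR in 9, and 0 to 159 of all genes were called. Control-32 enters this difference and the difference of treated mice from Control-32 with opposite signs, so the signs of the 2 differences are not independent.

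Totals of Control-10 (1233543 to 2206672) and Control-32 (721372 to 2731045) overlapped. Endothelial markers summed to 677 to 794 CPM (median 726) in Control-10 and to 319.6 to 779 CPM (median 516) in Control-32, so they were lower at the median in the group with less SDPR. In Control-32 minus Control-10 the median log2 difference of the endothelial markers was -0.41, that of the stellate cell and fibroblast markers -0.835 and that of the erythroid markers 1.18, beside a lower SDPR and a higher DPM1. The part of these lists in both differences was not tested.

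Control-57 against Control-32 called 0 of the 4 genes and 0% of all genes in edgeR, with 188 genes at an unadjusted p under 0.05, 30 called by DESeq2 and 1 by limma. DPM1 had -0.34 ± 0.36, SMC3 -0.02 ± 0.35, SDPR -0.10 ± 0.31 and CTNND1 -0.27 ± 0.38. Control-78 against Control-57 called 0 of the 4 and 0.499% of all genes. The differences were 0.08 ± 0.36, 0.17 ± 0.34, -0.38 ± 0.31 and -0.24 ± 0.38 in the same order of genes.

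Libraries that the authors left out gave treated samples outside the 9 comparisons, although the Control-78 libraries are shared with 4 of those. The values are therefore a description with no test. All 10 left-out libraries were shallow, with 244409 to 658155 counts, and were scaled together with all 78 libraries. The 3 left-out Direct-78 libraries also held exocrine pancreas genes at summed levels of 7480.3, 4855 and 21548 CPM, against a median of 394 CPM over the kept libraries. Their hepatocyte markers summed to 25961, 10563 and 36376 CPM, below all Control-78 libraries, and their proliferation genes summed to 855, 2041 and 887 CPM, above all Control-78 libraries. The part of these lists in the values of the 4 genes was not tested.

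Left-out Direct-78 had 302, 363 and 348 CPM of DPM1, all below Control-78 (454 to 3141 CPM). The log2 difference was -1.88 ± 0.52 (SE). CTNND1 had 4385, 783 and 3704 CPM beside 915 to 1473 CPM in Control-78, so that 2 libraries lay above the controls and mouse 62 below them. Its difference was 1.36 ± 0.48, and -0.46 with depth as a covariate. SDPR had 103, 65.7 and 60.6 CPM, all above Control-78 (22.6 to 51.2 CPM), with a difference of 0.96 ± 0.38. Beside it, the median log2 difference was 0.78 for endothelial markers and 0.49 for stellate cell and fibroblast markers, against -0.07 for all genes. The part of both lists in this SDPR value was not tested. SMC3 had 12.999, 57.2 and 33.5 CPM beside 10.1 to 31.8 CPM, with 2 of 3 libraries above the controls and a difference of 0.77 ± 0.43. In these libraries 3 of the 4 genes were called (47.5% of all genes), from which nothing is read. The call of CTNND1 was lost without mouse 61 (a difference of 0.96) or 63 (1.16) and that of SDPR without mouse 61 (0.69) or control mouse 86 (0.89), while SMC3 was called without mouse 61 (1.15). Over 8 other settings DPM1 was called in 6, SMC3 in 3, SDPR in 4 and CTNND1 in 7, with 371 to 1387 of all genes called. The DPM1 difference nearest 0 among these was -0.998.

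In left-out S3-78 many genes were not detected: 481 of 2205 genes (21.8%) had no count in either library, and the median of all genes was at -1.67 against Control-78. SMC3 and SDPR were among these genes with 0 counts. With a floor of 3 counts over the group, which covers counting error only, SMC3 was at least 4.87-fold lower than in Control-78. SDPR was at least 9.28-fold lower. Neither bound is relative to the median of all genes, which was itself lower. The kept S3-78 libraries had the other direction, at 0.69 ± 0.38 for SMC3, which was not called, and 1.84 ± 0.34 for SDPR. DPM1 had 102 and 487 CPM and a difference of -2.07 ± 0.63, or -0.40 relative to the median of all genes, and -1.22 without mouse 57, where it was no longer called. CTNND1 had 628 and 1819 CPM and a difference of 0.09 ± 0.57, or 1.76 relative to that median. Here 3 of the 4 genes were called (51.9% of all genes), and the part of RNA quality was not tested.

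In left-out S2-78, 231 of 2205 genes (10.5%) had no count in either library. Hepatocyte markers summed to 60645 and 45863 CPM, below the 75895 to 115220 CPM of Control-78. The median log2 difference was -1.60 for hepatocyte markers and 0.61 for proliferation genes. The part of these lists and of RNA quality in the values of the 4 genes was not tested. Left-out S2-78 called 1 of the 4 genes and 29.8% of all genes, with the median of all genes at -0.58. CTNND1 had 5972 and 2507 CPM, both above Control-78, and a difference of 1.88 ± 0.53, or 2.46 relative to that median. It was 1.23 without mouse 46, where it was no longer called, and 0.0192 with depth as a covariate. DPM1 had -0.87 ± 0.58, SMC3 0.57 ± 0.52 and SDPR 0.78 ± 0.45. Without 1 library these ran from -1.16 to -0.20 for DPM1, 0.43 to 0.91 for SMC3 and 0.49 to 1.26 for SDPR. Over other settings the DPM1 difference came as near 0 as -0.0019.

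**Figure D3:**
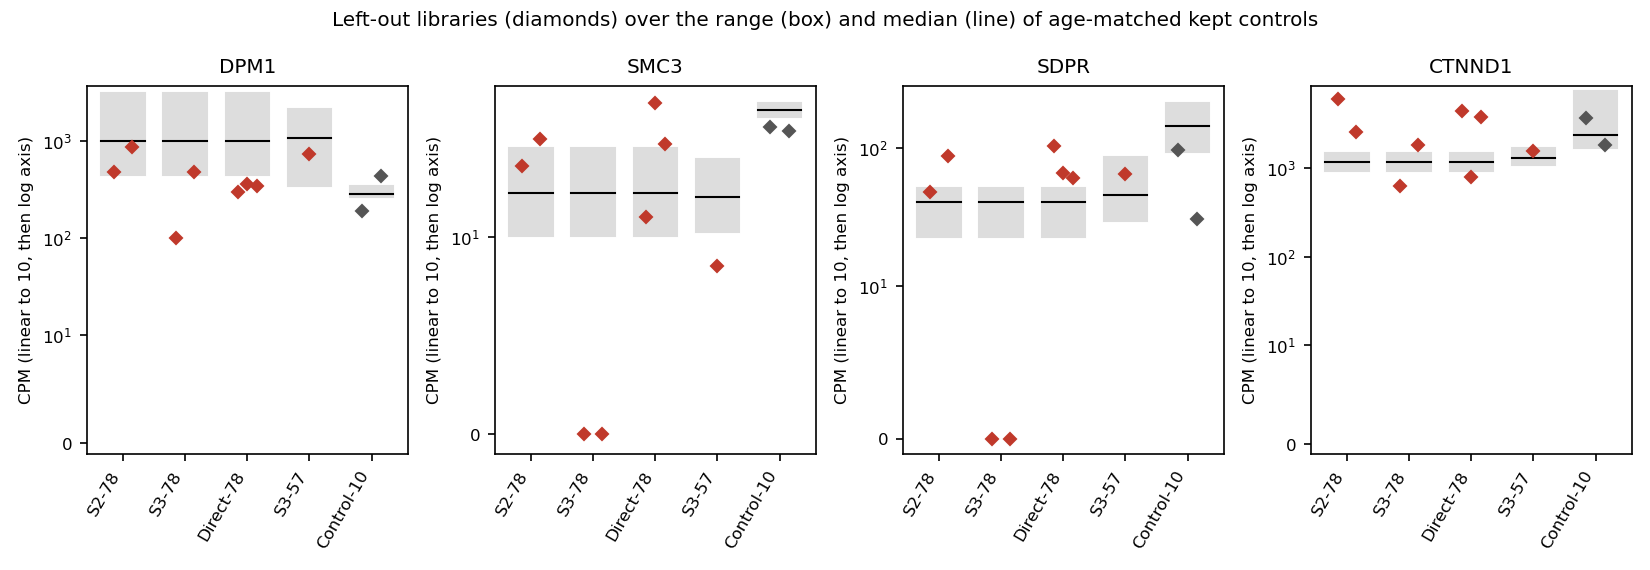
Level of the 4 genes in CPM in the libraries left out by the authors, beside the range and median of the kept control libraries of the same week. Left-out Direct-78 libraries lie below the controls for DPM1, and left-out S3-78 libraries are at 0 for SMC3 and SDPR.

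Libraries of the same group were also compared with each other, to see whether the genes moved together beyond the group differences. After group means of log2 CPM were taken off, DPM1 and SDPR had a Pearson r of -0.43 and a Spearman rho of -0.42 over 68 libraries. DPM1 and SMC3 had -0.39 and -0.33. Mice with more DPM1 than others of their group thus tended to have less SDPR and SMC3. Without the 2 libraries farthest from the median of DPM1, r was -0.35 for SDPR and -0.32 for SMC3. The other 4 pairs were closer to 0: DPM1 and CTNND1 had -0.17 (rho -0.23), SMC3 and CTNND1 -0.16 (rho -0.19), SMC3 and SDPR 0.14 (rho 0.08), and SDPR and CTNND1 0.10 (rho 0.09). Over all 2429910 pairs of the 2205 genes the median r was 0.02, with quartiles of -0.19 and 0.23. The 68 points share depth and scaling factors within each library, and these values are descriptions of 6 pairs. Over the 13 group means, r was -0.82 for DPM1 and SDPR, -0.78 for DPM1 and SMC3, -0.70 for DPM1 and CTNND1, 0.70 for SMC3 and SDPR, 0.58 for SDPR and CTNND1 and 0.25 for SMC3 and CTNND1, which the choice of the genes shapes.

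**Figure D4:**
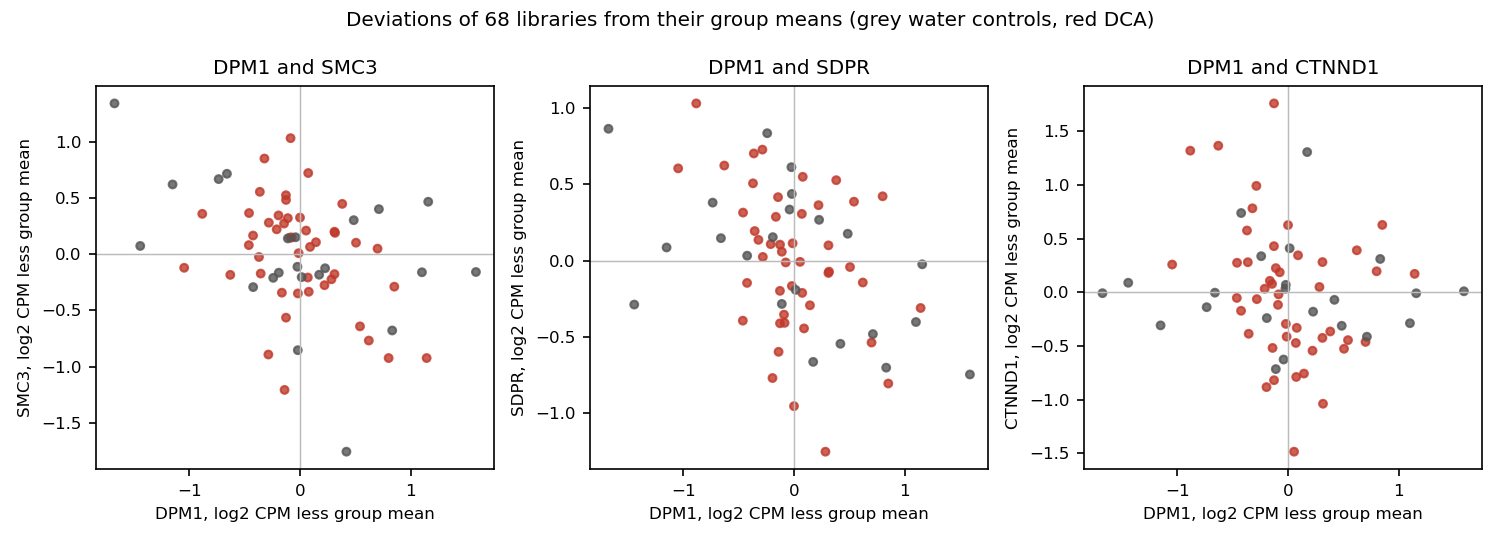
Deviation of each of 68 libraries from its group mean in log2 CPM, with DPM1 on the horizontal axis and SMC3, SDPR and CTNND1 on the vertical axes, controls in grey and DCA in red. The points for SMC3 and SDPR slope downwards, with r of -0.39 and -0.43, and those for CTNND1 show a weaker slope, with r of -0.17.

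The genes most like each of the 4 were found by the Pearson correlation of mean log2 CPM over the 13 groups, among 2204 other genes. For DPM1 they were LSM2, a part of the U6 small nuclear ribonucleoprotein (r = 0.96, rho = 0.86), IDE, the insulin-degrading protease (r = 0.95, rho = 0.87) and TMEM50A, a membrane protein (r = 0.94, rho = 0.80). The 95th percentile of r over all genes was 0.669 for DPM1. For SMC3 they were ECSCR, an endothelial surface receptor (r = 0.88, rho = 0.74), HDAC2, a histone deacetylase (r = 0.87, rho = 0.71) and WDR3, a nucleolar protein (r = 0.86, rho = 0.77), with a 95th percentile of 0.552. For SDPR they were HMG20B, a chromatin protein (r = 0.85, rho = 0.88), MEIS2, a homeobox factor (r = 0.83, rho = 0.66) and NPDC1 (r = 0.81, rho = 0.75), with the same 95th percentile to 3 digits. For CTNND1 they were HIST1H2BB, a histone H2B gene (r = 0.95, rho = 0.94), AP2M1, a clathrin adaptor subunit (r = 0.93, rho = 0.95) and AEN, a nuclease (r = 0.93, rho = 0.95), with a 95th percentile of 0.723. The same 3 genes came first for each member with a prior count of 0.5 in place of 2. By rank correlation HMG20B remained first for SDPR, while other genes led for DPM1, SMC3 and CTNND1.

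Other genes of the pathways of the 4 were counted over the same 9 comparisons with controls, from lists that leave out the 4 themselves. Over all 2205 genes, 2083 of 19845 pairs of gene and comparison were called (10.5%). The lists lay near or under that share, so nothing is read from them. Genes named from the lists were picked by their calls in these same comparisons, so their adjusted p-values are a description.

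Of genes for dolichol, N-glycosylation and GPI anchors, 9 of 79 were on the panel, and 8 of 81 pairs were called (9.88%), 3 higher and 5 lower. The median log2 difference of this list was 0.05 in S1-32 and -1.14 in Direct-78, against 0.05 and -0.33 for all genes. DPM2, which stabilises DPM1 in the synthase, had -1.98 ± 0.40 (adjusted p = 0.000786) in S3-78, lower in 4 of 4 libraries. It had -3.85 ± 0.52 (adjusted p = 1.19e-06) in Direct-78, lower in 3 of 3 libraries, and both calls held without any 1 library but were lost when depth was a covariate. In S1-32 it had 0.94 ± 0.34 (adjusted p = 0.0321), a call lost without mouse 19 or without control mouse 73, 75, 76 or 78 (adjusted p up to 0.0971). PMM2, a phosphomannomutase, had -2.08 ± 0.57 (adjusted p = 0.00983) in S3-78, lower in 4 of 4 libraries, a call also lost with that covariate. It was called in the other direction in S1-32, at 1.19 ± 0.47 (adjusted p = 0.0492) with 6 of 6 libraries higher, and lower again in Direct-78, at -1.69 ± 0.63 (adjusted p = 0.0429). The Direct-78 call was lost in 7 of 11 other settings, and with depth as a covariate the PMM2 difference turned to 0.97. MPI, which makes mannose 6-phosphate, had 2.77 ± 0.90 (adjusted p = 0.0184) in S1-32, lost without control mouse 78 (0.0529), at mean levels of 9.92 and 1.22 CPM. DHDDS, which starts dolichol synthesis, had -0.91 ± 0.27 (adjusted p = 0.0132) in Direct-78, lost without mouse 64, 66 or control mouse 89 (up to 0.234).

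Of cohesin, condensin and related genes, 16 of 38 were on the panel and 12 were tested, and 10 of 108 pairs were called (9.26%), 5 higher and 5 lower. The median log2 difference was -0.51 in S1-32 and 0.91 in Direct-78, against 0.05 and -0.33 for all genes. SMC1A, the partner of SMC3 in the ring, had 2.05 ± 0.69 (adjusted p = 0.0226) in S1-32, higher in 6 of 6 libraries, a call lost without control mouse 75 or 78 (up to 0.0628). It had 0 counts in all 3 Direct-78 libraries and was at least 16.1-fold lower there than in Control-78, by a floor of 3 counts over the group, in the shallowest group, and that call was lost with all 78 libraries and with depth as a covariate. SMC4, a condensin subunit, had 1.75 ± 0.52 (adjusted p = 0.0225) in S2-32, lost without mouse 39 or control mouse 75 or 78 (up to 0.0651). CTCF, which halts cohesin on chromatin, had -1.54 ± 0.36 (adjusted p = 0.00616) in S2-32, lower in 6 of 6 libraries, and this call held without any 1 library but was lost with all 78 libraries (adjusted p = 0.0640). DSCC1, a subunit of a cohesion clamp loader, was called lower in S1-10, with mean levels of 0.233 CPM and 8.06 CPM in its controls, and this call was lost without any 1 of 5 libraries (up to 0.635).

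Of caveola and lipid raft genes, 9 of 25 were on the panel and 7 were tested, and 4 of 63 pairs were called (6.35%), 3 higher and 1 lower. PRKCD, the kinase that binds the related cavin-3, had 1.34 ± 0.33 (adjusted p = 0.00496) in S3-78, and PRKCA, the kinase that binds the SDPR protein, had 1.91 ± 0.52 (adjusted p = 0.00942). Both were higher in 4 of 4 libraries, and both calls were lost without mouse 59 (adjusted p of 0.149 and 0.0610). FYN, a membrane-bound tyrosine kinase, had -2.82 ± 0.94 (adjusted p = 0.0253) in Direct-78, lost without mouse 64 or 65 (up to 0.166). CD36, a fatty acid transporter, had 2.04 ± 0.78 (adjusted p = 0.0475) there, lost without mouse 64 or 65 or control mouse 87, 88, 89 or 90 (up to 0.116).

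Of cadherin, catenin and junction genes, 15 of 51 were on the panel and 13 were tested, and 9 of 117 pairs were called (7.69%), 5 higher and 4 lower. DSC2, a desmosomal cadherin, had 1.57 ± 0.43 (adjusted p = 0.00981) in S3-78, lost without mouse 55 (0.0902). CTNNB1, the beta catenin that binds the other end of the cadherin tail, had -1.38 ± 0.36 (adjusted p = 0.00577) in Direct-78, lower in 3 of 3 libraries. That call was lost without mouse 64 or 66 (up to 0.0823), when the fit held just both groups compared, and with depth as a covariate, where the difference was -0.0360 (adjusted p = 0.982). In S1-32 it was called higher, at 0.76 ± 0.28 (adjusted p = 0.0341) in 6 of 6 libraries. CLDN7, a tight junction claudin, had 4.75 ± 1.32 (adjusted p = 0.00824) in Direct-78, higher in 3 of 3 libraries and lost without mouse 64 (0.0663). CLDN7 is also one of the cholangiocyte markers, whose median log2 difference there was 2.42 beside -0.33 for all genes. RHOA, the small GTPase that p120 catenin acts on, had -2.88 ± 0.97 (adjusted p = 0.0219) in S1-32, lower in 6 of 6 libraries at mean levels of 1.93 and 14.7 CPM. This call held without any 1 library and was lost when depth was a covariate, while the RHOA difference stayed between -3.25 and -2.20 over all 11 other settings. SMC4 and CTCF were also called in S1-32, and DSC2 in S1-32 and S2-32, in the directions given, and these calls, like those of PMM2 and CTNNB1 in S1-32 and of PMM2 in Direct-78, were each lost without at least 1 library. Each call named from these lists was lost in at least 1 of the 11 other settings.

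The remaining marker lists were summed in each library to show what else the sections held. Macrophage markers (8 of 16 on the panel, MPEG1 the most abundant) summed to 769 to 8647 CPM, with a median of 1562 over the 68 libraries. Lymphocyte markers (11 of 16, CORO1A) summed to 41.9 to 783 CPM, with a median of 109. Stellate cell and fibroblast markers summed to 116 to 1916 CPM, with a median of 316. The highest library of these lists lay in Control-57, S3-78 and S1-78 in this order. Erythroid markers summed to 13.8 to 1028 CPM, with a median of 302, and skeletal muscle genes (14 of 14, ACTA1) to 1.47 to 9050.1 CPM, with a median of 89.2. Exocrine pancreas genes (15 of 22, AMY1) summed to 67.7 to 26721 CPM, with a median of 394, and the sum was over 10 times that median in 3 kept libraries, mouse 17 of S1-10 at 6028 CPM, mouse 36 of S1-78 at 26721 CPM and mouse 47 of S2-78 at 16041 CPM. No gene of these lists was at 0 in every kept library. Without those 3 libraries DPM1 was called in 8 of 9 comparisons, SMC3 in 5, SDPR in 5 and CTNND1 in 4. These comparisons chose the genes, so nothing is read from these counts.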

How the data were processed

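The authors ran TempO-Seq on liver of 78 mice, aligned reads with Bowtie in Partek 10.0.22.0524 and deposited 1 count per gene and library. The deposited normalized signal equals the count plus 1 divided by 1 factor per library, to within 0.00335, for 68 libraries, and the authors' filter kept 2205 of 2755 genes. Replicates are separate mice, and no sample column was left unused.

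Counts of the 2205 genes were scaled by TMM and fitted with the quasi-likelihood test of edgeR 4.0.16 (R 4.3.3), with 13 groups in 1 fit and Benjamini-Hochberg adjustment. SE was the log2 difference divided by the square root of F. Left-out libraries were fitted as their own groups with all 78. Levels for correlations were log2 CPM with a prior count of 2. The script was tested on simulated data. Alternatives used DESeq2 1.42.0, limma 3.58.1, other scalings, filters, libraries and covariates, and 81 fits that each left out 1 library. Over 195 pairs of replicates, chi-square divided by its degrees of freedom was never under 25.7. Each pair is of separate mice, which differ by more than counting error by design, so nothing is concluded from this value. Tables were handled with Python 3.11.15, numpy 2.4.6 and pandas 2.3.3, and figures were drawn with matplotlib 3.10.9.

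The members and lists were chosen with earlier results of these data known. Genes named are the 4 members, up to 4 genes of each pathway list with calls in the largest number of the 9 comparisons (3 at most; ties by largest log2 difference), the 3 genes most correlated with each member over group means, and the most abundant gene of each marker list.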

Additional observations from a re-analysis of the deposited data

Results flagged for a closer look

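Of 48 pairs of gene and group with 4 to 10 libraries, 4 held a library far from the rest, and chance alone flags about 1 in 20. DPM1 in S1-32 had its highest level, 628 CPM, in mouse 19, whose exocrine pancreas genes summed to 3819.8 CPM, the highest of S1-32. DPM1 in S2-78 had its highest level, 727 CPM, in mouse 47, the library with a high sum of exocrine pancreas genes. Mouse 36 of S1-78 and mouse 17 of S1-10, with sums of 26721 and 6028 CPM of these genes, had 445 and 403 CPM of DPM1. Both levels lay inside their groups. DPM1 in Control-78 reached 3006 CPM in mouse 86. CTNND1 in Control-32 reached 2590.0 CPM in mouse 73.

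In 19 pairs of treated groups, every library of 1 group lay on one side of the mean log2 level of its age-matched controls and every library of the other on the opposite side. Each such pair held S1-10, sampled when its DCA ended. The difference between the groups' mean log2 differences was not tested in any pair. For DPM1, which was above its controls in S1-10 and below them in the other group, it was 1.98 with S1-32, 1.83 with S1-57, 1.79 with S1-78, 2.28 with S2-32, 1.71 with S2-78, 2.82 with S3-57, 2.52 with S3-78 and 2.00 with Direct-78. For SDPR, which was below its controls in S1-10, it was 1.71 with S1-32, 1.91 with S1-57, 2.39 with S1-78, 1.74 with S2-32, 1.97 with S2-78, 1.70 with S3-57 and 2.68 with S3-78. For CTNND1, also below its controls in S1-10, it was 2.55 with S2-78, 2.89 with S3-57, 3.71 with S3-78 and 2.99 with Direct-78. For DPM1, SDPR and CTNND1 the median of Control-10 itself lay apart from those of the older controls, and without mouse 68 of Control-10 the S1-10 value of CTNND1 was -0.88 in place of -1.52, so these pairs carry the control ages as well as the treatment, and the parts of age and of time on DCA were not separated by a test.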

How the results depend on the processing

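Against controls, 381 values of the 4 genes stayed within the spread between mice under other settings and 15 moved, and without 1 library 387 stayed and 5 moved. In the other comparisons 372 values kept direction and side of the threshold under other settings, 18 reversed, 6 became stronger and 16 weaker. Without 1 library these numbers were 351, 21, 1 and 19. No paired analysis was possible because no mouse number is shared between groups. Causes of the changes below were not tested.

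Calls over the 9 comparisons were 7 for DPM1, 5 for SMC3, 4 for SDPR, 4 for CTNND1, 8 for the dolichol list, 10 for cohesin, 4 for caveola and 9 for cadherin genes. DESeq2 gave SDPR 7, CTNND1 7 and caveola 8 calls, DPM1 in Direct-78 minus S1-78 0.11 and SMC3 in left-out Direct-78 1.25. RLE scaling gave 0.11 and 1.24 for the latter 2. Upper quartile scaling gave SDPR 7 and dolichol 5 calls, DPM1 in Direct-78 minus S1-78 0.19, DPM1 in left-out Direct-78 -0.998 and S3-78 -0.69, SMC3 in left-out Direct-78 1.74 and S2-78 1.47, SDPR in left-out S2-78 1.72 and CTNND1 in left-out S3-78 1.60. All 78 libraries gave SMC3 1, SDPR 0, dolichol 4 and caveola 1 calls, SMC3 in Direct-78 minus S1-78 -0.067, and in Control-32 minus Control-10 SMC3 -1.37 and SDPR -1.12. All genes with a count gave SMC3 -1.53 in Control-32 minus Control-10 and 0.0430 in Control-57 minus Control-32, SDPR 0.66 in left-out Direct-78 and CTNND1 -0.0798 in left-out S3-78. filterByExpr gave the same 0.66 and -0.0798. Detected genes as a covariate gave SMC3 3 calls, DPM1 in Direct-78 minus S1-78 0.0792, SMC3 in S2-32 minus S1-32 -0.0154, in Direct-78 minus S1-78 -0.16 and in Control-57 minus Control-32 0.10, and CTNND1 in left-out S3-78 -0.036. limma gave SMC3 -0.0751 in S2-32 minus S1-32 and 0.23 in Control-57 minus Control-32. Log2 total count as a covariate gave SMC3 3, CTNND1 2, dolichol 0, cohesin 2, caveola 1 and cadherin 3 calls, DPM1 in left-out Direct-78 -1.84 and S3-78 -2.03, SDPR in left-out Direct-78 1.52, PMM2 in Direct-78 0.97, and CTNND1 in Direct-78 minus S1-78 -0.71, Control-57 minus Control-32 0.28, and left-out Direct-78 -0.46, S3-78 -1.76 and S2-78 0.0192. Only the compared groups gave DPM1 4, SMC3 1, SDPR 2 and cohesin 5 calls, in Control-32 minus Control-10 DPM1 2.46, SMC3 -1.38 and SDPR -1.35, and DPM1 in left-out S3-78 -1.93 and SDPR in left-out Direct-78 1.01.

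Without 1 library the ranges were, for DPM1, -0.33 to 0.0738 in Direct-78 minus S1-78, -0.42 to 0.38 in Control-78 minus Control-57 and -3.47 to -1.22 in left-out S3-78. For SMC3 they were -0.15 to 0.21 in S2-32 minus S1-32, -0.12 to 0.47 in Direct-78 minus S1-78, -1.87 to -1.26 in Control-32 minus Control-10, -0.27 to 0.37 in Control-57 minus Control-32, -0.0031 to 0.33 in Control-78 minus Control-57 and 0.18 to 1.15 in left-out Direct-78. For SDPR they were -0.0230 to 0.15 in S2-32 minus S1-32, -1.66 to -1.20 in Control-32 minus Control-10, -0.31 to 0.14 in Control-57 minus Control-32 and 0.69 to 1.10 in left-out Direct-78. For CTNND1 they were -0.0094 to 0.71 in S3-57 minus S1-57, 0.96 to 1.81 in left-out Direct-78, -0.74 to 0.79 in left-out S3-78 and 1.23 to 2.56 in left-out S2-78. Against controls, ranges included DPM1 in S1-78 (-1.85 to -1.12), DPM1 in S2-78 (-1.89 to -0.94), SMC3 in S3-78 (0.23 to 0.94), SDPR in S3-57 (0.56 to 1.12), and CTNND1 in S1-10 (-1.74 to -0.88), S1-32 (-0.44 to -0.16), S1-78 (0.66 to 1.33), S2-32 (0.0748 to 0.45), S3-57 (1.27 to 1.93) and Control-32 minus Control-10 (-1.24 to -0.26). Over settings CTNND1 ranged from -0.63 to 0.35 in S1-32, 0.72 to 1.29 in S1-78, 0.0493 to 0.51 in S2-32, 0.66 to 1.60 in S2-78 and 1.06 to 1.87 in S3-57, and SMC3 from 0.17 to 0.94 in S3-78. In Control-32 minus Control-10 the call of SMC3 was lost without Control-10 mice 69, 71 or 72 or Control-32 mice 73, 75, 76, 77 or 78, and that of SDPR without Control-10 mice 71 or 72 or Control-32 mice 75, 76 or 78. Calls were 5 to 11 for dolichol, 6 to 11 for cohesin and 2 to 6 for caveola genes.

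Genes called, with the lowest and highest over settings, were 121 (40 to 241) in S1-10, 642 (36 to 859) in S1-32, 35 (1 to 71) in S1-57, 40 (0 to 85) in S1-78, 235 (56 to 393) in S2-32, 36 (0 to 119) in S2-78, 141 (12 to 223) in S3-57, 294 (117 to 404) in S3-78 and 539 (11 to 751) in Direct-78. They were 78 (12 to 446) in S2-32 minus S1-32, 0 (0 to 7) in S3-57 minus S1-57, 540 (9 to 680) in Direct-78 minus S1-78, 111 (0 to 174) in Direct-78 minus S3-78, 35 (0 to 159) in Control-32 minus Control-10, 0 (0 to 30) in Control-57 minus Control-32 and 11 (0 to 19) in Control-78 minus Control-57. For left-out libraries they were 1047 (371 to 1387) in Direct-78, 1145 (655 to 1255) in S3-78 and 656 (90 to 954) in S2-78. Without 1 library they were 2 to 151 in S1-10, 372 to 887 in S1-32, 6 to 36 in S1-57, 21 to 74 in S1-78, 121 to 502 in S2-32, 22 to 48 in S2-78, 59 to 180 in S3-57, 165 to 316 in S3-78, 211 to 634 in Direct-78. They were 27 to 79 in S2-32 minus S1-32, 0 to 2 in S3-57 minus S1-57, 232 to 733 in Direct-78 minus S1-78, 57 to 173 in Direct-78 minus S3-78, 5 to 236 in Control-32 minus Control-10, 0 to 11 in Control-57 minus Control-32, 0 to 15 in Control-78 minus Control-57, 852 to 1066 in Direct-78 left out, 771 to 1171 in S3-78 left out and 204 to 726 in S2-78 left out. The shares of all genes called in the report depend on single libraries accordingly.

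Some limits bear on these values. Depth differed between treated and control libraries without overlap in S1-32, S3-57, S3-78 and Direct-78, so depth and treatment are not separable there. Plates or batches were not given, and each gene was read by probes whose isoform is not known here. Limma on the normalized values and the fit of all 78 libraries in their groups give no value for left-out libraries, and leaving out libraries high in pancreas genes gives none for left-out Direct-78.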

Other observations

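The libraries that the authors left out of S3-57 and Control-10 belong to no test here. The left-out S3-57 library, mouse 52, had 739 CPM of DPM1, 8.55 CPM of SMC3 from 2 counts, 64.1 CPM of SDPR and 1560.2 CPM of CTNND1, and 1085 of 2205 genes (49.2%) had no count in it. The left-out Control-10 libraries, mice 67 and 70, had 193 and 436 CPM of DPM1, on either side of the kept Control-10 libraries. They had 41.8 and 39.4 CPM of SMC3, 95.9 and 30.7 CPM of SDPR and 3625 and 1827 CPM of CTNND1.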
